A study of Mus musculus with 5 samples.

Results

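The Dmrt genes encode transcription factors that share the DM domain, a zinc-binding module named after Doublesex of the fly and MAB-3 of the worm. The 5 genes described here, Dmrt3, Dmrta1, Dmrta2, Dmrt1 and Dmrtb1, were taken by symbol from 34590 gene symbols in count tables of embryonic mouse cortex. They were chosen by name as cortical patterning factors and with their measured medial and lateral read counts known, so those levels are a description and carry no test. RNA sequencing had been done on 3 libraries of medial cortex and 2 libraries of lateral cortex. All came from wild-type mice of a mixed strain background at embryonic stage E14.5, dissected without any treatment. Nothing says whether the libraries of a region came from separate embryos, so the spread between them may be technical.

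The DM domain binds DNA through the minor groove, and the family is best known for its part in sex determination. Dmrt1 keeps the testis male and Dmrtb1 acts in male germ cells. In the mouse forebrain, Dmrt3, Dmrta1 (also called Dmrt4) and Dmrta2 (also called Dmrt5) are made by dividing radial glia of the dorsal cortex, in a gradient that is high medially. Loss of Dmrta2 in the mouse shrinks the hippocampal primordium and the cortical hem, the signalling edge of the medial cortex, and Dmrt3 and Dmrta2 together hold ventral forebrain genes such as Gsx2 silent in the cortex. Dmrta1 has been linked in mouse cortex to the proneural gene Neurog2.

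The coding stretch that opens the DM domain is shown for each gene because it is the feature that unites the family. Each line gives 120 bases in frame from GENCODE M21 transcripts, 5′ to 3′, and the capitals mark the bases that encode the opening residues, with the first zinc-binding cysteines.
Dmrt3: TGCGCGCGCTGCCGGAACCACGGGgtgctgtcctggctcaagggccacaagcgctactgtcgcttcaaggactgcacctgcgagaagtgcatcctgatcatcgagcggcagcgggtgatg
Dmrta1: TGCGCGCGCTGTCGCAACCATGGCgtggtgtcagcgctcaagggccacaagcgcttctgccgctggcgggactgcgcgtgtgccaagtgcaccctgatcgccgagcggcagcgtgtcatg
Dmrta2: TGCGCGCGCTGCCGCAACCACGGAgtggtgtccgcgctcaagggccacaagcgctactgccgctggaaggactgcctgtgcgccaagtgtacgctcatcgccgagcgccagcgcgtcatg
Dmrt1: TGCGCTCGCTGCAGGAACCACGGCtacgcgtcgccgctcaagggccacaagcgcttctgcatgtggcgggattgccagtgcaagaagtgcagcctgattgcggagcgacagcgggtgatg
Dmrtb1: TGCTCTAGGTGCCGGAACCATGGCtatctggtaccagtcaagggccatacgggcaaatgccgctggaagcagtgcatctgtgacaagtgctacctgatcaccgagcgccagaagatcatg
Over these bases Dmrta1 and Dmrta2 were the closest pair, at 87.5% identity. Dmrt3 matched Dmrta2 at 81.7% and Dmrta1 at 80.0% of positions. Dmrtb1 was the most distant member, at 65.0% with Dmrt1 and between 68.3% and 69.2% with the other members. Dmrt1, Dmrt3 and the non-member Dmrt2 lie side by side on mouse chromosome 19, and Dmrta1, Dmrtb1 and Dmrta2 lie on chromosome 4 (RefSeq, GRCm38.p6).

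All 5 genes had a higher mean level in medial cortex after scaling to library size, but they fell into a pair of patterns. Dmrt3, Dmrta1 and Dmrta2 were well expressed on both sides, with medial means between 1.64 and 3.32 times the lateral means. Dmrt1 and Dmrtb1, the genes known from the testis, were rare, with 2 reads of Dmrt1 and at most 46 of Dmrtb1 in a lateral library, and were uneven among the medial libraries. Levels are in CPM, the reads of a gene scaled to the size of its library after correction by the trimmed mean of M-values (TMM), and log2 fold changes are medial over lateral with their standard error (SE), from edgeR fitted to all genes. The libraries held between 27406370 and 36460274 gene reads in medial cortex and between 56147129 and 66981952 in lateral cortex.

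**Figure D1:**
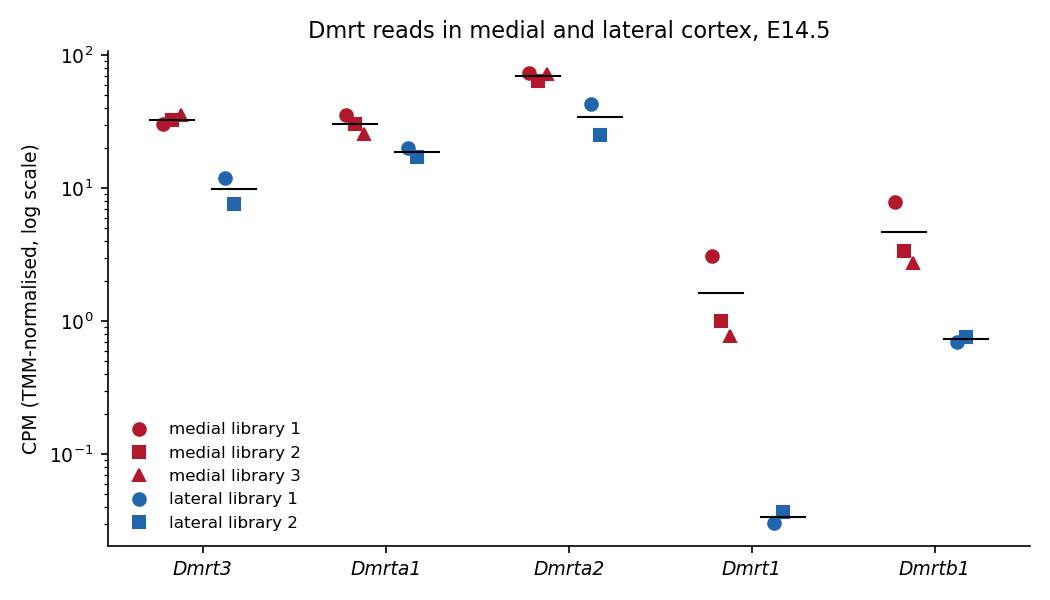
CPM on a log axis for the 5 Dmrt genes, with a point for each library (medial left of lateral) and a bar at each group mean. Medial points lie above lateral points for each gene, and Dmrt1 and Dmrtb1 stand highest in medial library 1, at 3.09 and 7.91 CPM.

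Dmrt3, which acts with Dmrta2 in the medial cortex, had 30.2, 32.5 and 35.3 CPM in medial libraries 1 to 3, against 12.04 and 7.60 CPM in lateral libraries 1 and 2. The groups lay well apart, with the lowest medial library 2.50 times the highest lateral one. Dmrt3 averaged 32.6 ± 2.56 CPM over the 3 medial and 9.82 ± 3.14 CPM over the 2 lateral libraries (mean ± SD), a log2 fold change of 1.73 (SE 0.21). The medial libraries were even, and most of the spread lay in lateral cortex, where library 1 held 1.59 times the level of library 2. Leaving out lateral library 2 or lateral library 1 moved the log2 fold change to 1.44 or 2.10.

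Dmrta2, the member most needed for medial cortex in the mouse, was the most abundant, with 73.2, 63.9 and 71.6 CPM in medial libraries 1 to 3, against 42.9 and 25.3 CPM in lateral libraries 1 and 2. All medial libraries were higher than both lateral libraries, and lateral library 2 was the lowest. Dmrta2 averaged 69.6 ± 4.95 CPM over the 3 medial and 34.1 ± 12.5 CPM over the 2 lateral libraries (mean ± SD), and the log2 fold change was 1.03 (SE 0.23). That value rested on the lateral libraries: it was 0.69 without lateral library 2 and 1.46 without lateral library 1. The libraries did not mark the strand, so reads of the overlapping antisense gene Dmrta2os could be counted as Dmrta2.

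Dmrta1, the closest relative of Dmrta2, differed least. It had 35.6, 30.5 and 25.6 CPM in medial libraries 1 to 3, against 20.2 and 17.0 CPM in lateral libraries 1 and 2. The groups did not overlap, but the gap was narrow, with the lowest medial library at 1.26 times the highest lateral one. Dmrta1 averaged 30.6 ± 4.99 CPM over the 3 medial and 18.6 ± 2.27 CPM over the 2 lateral libraries (mean ± SD), for a log2 fold change of 0.71 (SE 0.17) that stayed between 0.59 and 0.84 in every alternative fit.

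Dmrt1, the male sex-determination factor, had 89, 29 and 28 reads in medial libraries 1 to 3, against 2 and 2 reads in lateral libraries 1 and 2. These came to 3.09, 1.01 and 0.779 CPM in medial cortex and to 0.0304 and 0.0371 CPM in lateral cortex. Both lateral values are below the level of 3 reads, the limit a count of 0 would allow. Over the summed reads, 146 medial and 4 lateral, the ratio of CPM was 46.8 with an exact 95% interval from 17.9 to 174, which covers counting error only. The fitted log2 fold change was 5.45 (SE 1.05) and was 4.62 without medial library 1.

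Dmrtb1, a regulator of male germ cell development, had 228, 97 and 99 reads in medial libraries 1 to 3, against 46 and 41 reads in lateral libraries 1 and 2. Its level was 7.91, 3.39 and 2.75 CPM in medial cortex and 0.699 and 0.761 CPM in lateral cortex. Medial library 1 was the highest, the lateral libraries were nearly level, and the lowest medial library was 3.62 times the highest lateral one. Dmrtb1 averaged 4.69 ± 2.81 CPM over the 3 medial and 0.730 ± 0.0438 CPM over the 2 lateral libraries (mean ± SD), and the log2 fold change was 2.67 (SE 0.56), or 2.07 without medial library 1. Dmrtb1 overlaps the noncoding gene 1700047F07Rik, which had at most 3 reads in any library.

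The groups did not overlap, with medial higher, for 5 of 5 Dmrt genes, where 26.5% of the 16229 genes tested showed the same and 26.7% were lower without overlap. In the fit, 4 of 5 members passed an adjusted p of 0.05 toward medial cortex, where 4.62% of genes did, and 9.72% passed in either direction. The genes were chosen with these values known, so neither count is evidence about them. All 5 passed the filter on low counts. In the pairs of libraries that share a number in their deposited names, medial 2 with lateral 1 and medial 3 with lateral 2, the log2 ratios were 1.43 and 2.22 for Dmrt3, 0.57 and 1.502 for Dmrta2, and 0.59 and 0.59 for Dmrta1. The same pairs gave 5.06 and 4.39 for Dmrt1 and 2.28 and 1.85 for Dmrtb1.

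Levels of different genes can be set side by side only per length. Per kilobase of annotated exons (GENCODE M21, which may differ from the annotation used for counting), Dmrta2 led in medial cortex at 23.8 CPM per kilobase ± 1.70 (SD, n = 3). Dmrt3 followed at 13.3 ± 1.05, Dmrta1 at 7.28 ± 1.19, Dmrtb1 at 2.25 ± 1.35 and Dmrt1 at 0.627 ± 0.490 (SD, n = 3 each). The first 3 did not overlap across medial libraries. In lateral cortex Dmrta2 again led at 11.7 CPM per kilobase ± 4.27, but Dmrta1 at 4.44 ± 0.541 and Dmrt3 at 4.02 ± 1.29 (SD, n = 2 each) overlapped. Dmrtb1 at 0.351 ± 0.0210 and Dmrt1 at 0.0130 ± 0.00184 (SD, n = 2 each) were far below them.

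The make-up of the Dmrt reads was compared by ratios within a library, which do not depend on how libraries were scaled. Dmrt3 had 0.412, 0.508 and 0.492 reads per read of Dmrta2 in medial libraries 1 to 3, against 0.281 and 0.3003 in lateral libraries 1 and 2. Every medial ratio exceeded both lateral ratios. Dmrt3 per read of Dmrta1 was 0.848, 1.07 and 1.38 in medial libraries and 0.595 and 0.446 in lateral libraries, again without overlap. Dmrta1 per read of Dmrta2 was 0.486, 0.477 and 0.357 in medial libraries and 0.471 and 0.673 in lateral libraries, so these groups overlapped. As a share of all reads of the 5 genes, Dmrt3 made up between 20.1% and 25.9% in medial libraries and between 14.98% and 15.9% in lateral libraries, with exact 95% intervals from 18.9% to 27.2% and from 13.7% to 16.9% that cover counting error only.

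**Figure D2:**
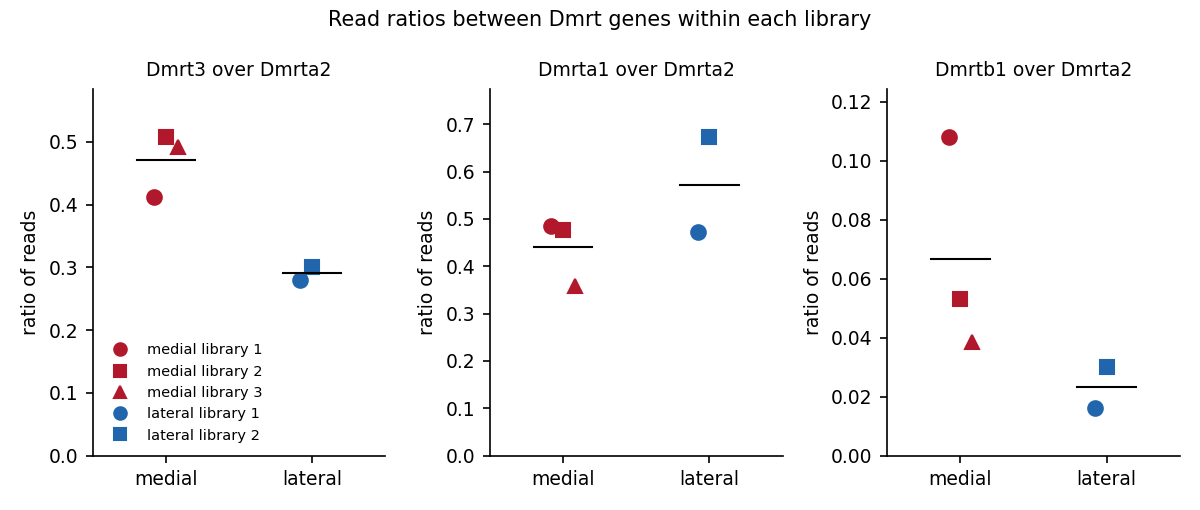
Reads of Dmrt3, Dmrta1 and Dmrtb1 divided by reads of Dmrta2 in the same library, with a point for each library and a bar at each group mean. Dmrt3 over Dmrta2 lies between 0.412 and 0.508 in medial and between 0.281 and 0.3003 in lateral cortex, while Dmrta1 over Dmrta2 overlaps between regions.

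Dmrt genes of the cortex mark dividing progenitors, and the share of such cells can differ between dissections. The summed CPM of 9 progenitor markers, among them Sox2, Nes, Vim and Mki67, ranged from 4702 to 5804 in medial libraries and from 3131 to 3623 in lateral libraries, a ratio of means of 1.51. Of these 9, 7 were higher in medial cortex without overlap, and Fabp7 and Slc1a3 overlapped. In the edgeR fit 1 of them passed an adjusted p of 0.05. The sum was weighted toward Vim, Nes, Top2a and Mki67, the most abundant of the 9. The sum of 6 neuron markers, of 7 listed, ran the other way, from 1232 to 2344 CPM in medial and from 3412 to 4275 CPM in lateral libraries. Relative to the progenitor sum, Dmrta1 came to 0.598 ± 0.0480% over the 3 medial and 0.551 ± 0.0104% over the 2 lateral libraries (mean ± SD), and these ranges overlapped. Dmrta2 came to 1.37 ± 0.135% over the 3 medial and 0.996 ± 0.266% over the 2 lateral libraries (mean ± SD), a ratio of 1.38, and its ranges did not overlap, at 1.26% to 1.52% in medial and 0.808% to 1.18% in lateral libraries. Dmrt3 came to 0.649 ± 0.118% over the 3 medial and 0.288 ± 0.0635% over the 2 lateral libraries (mean ± SD), a ratio of 2.26, and its ranges did not overlap. Dmrtb1 came to between 0.0586% and 0.136% in medial and between 0.0193% and 0.0243% in lateral libraries, a ratio of means of 4.06. Dmrt1 came to between 0.0166% and 0.0532% in medial libraries, and its 2 reads in each lateral library came to 0.000839% and 0.00119%. In bulk tissue, fewer cells of a type and less RNA per cell cannot be told apart.

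Among the medial libraries, Dmrt1 and Dmrtb1 moved apart from the other members. Medial library 1 held 3.44 times the mean of medial libraries 2 and 3 for Dmrt1 and 2.57 times for Dmrtb1, against 1.27 for Dmrta1, 1.08 for Dmrta2 and 0.890 for Dmrt3. In this library 3.04% of all genes tested were at least 2-fold higher than in both other medial libraries, Dmrt1 and Dmrtb1 among them. The 7 markers of the cortical hem summed to 245 CPM there, against 88.7 and 69.0 CPM in medial libraries 2 and 3 and at most 2.68 CPM in lateral cortex. Wnt3a, the ligand that defines the hem, was 3.53 times as high in medial library 1 as the mean of the others. Over the 7 hem markers this ratio was uneven, from 1.13 for Bmp7 to 4.44 for Wnt8b. The 6 markers of meninges, the connective tissue sheath of the brain, also summed to 294 CPM in that library, against 14.3 and 18.8 CPM in the other medial and 13.8 and 21.3 CPM in the lateral libraries. Over these 6 markers the ratio was uneven too, from 1.62 for Foxc1 to 56.4 for Col1a2. The part of either tissue in the Dmrt1 and Dmrtb1 reads was not tested. Without that library the genes had log2 fold changes of 4.62 (SE 0.48) and 2.07 (SE 0.24).

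**Figure D3:**
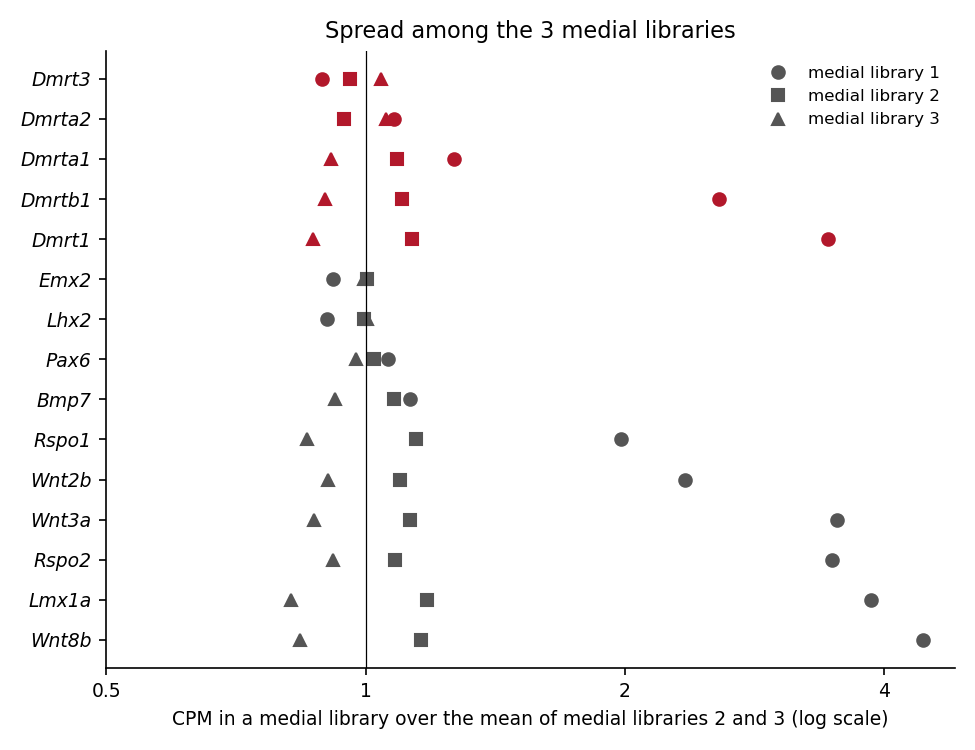
CPM in each medial library over the mean of medial libraries 2 and 3, on a log axis, for the Dmrt genes (red) and for factors and hem genes (grey). In medial library 1, Dmrt1 stands at 3.44 and Dmrtb1 at 2.57. The hem genes run from Bmp7 at 1.13 to Wnt8b at 4.44, with Wnt3a at 3.53. Dmrt3 at 0.890 stands near Emx2 at 0.916 and Lhx2 at 0.903.

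Marker genes bore on what the tissue held. The 9 gonad and germ cell markers, including Dazl and Ddx4, summed to between 1.19 and 1.28 CPM in medial and between 1.58 and 1.65 CPM in lateral libraries, with no gene above 0.684 CPM. The sums in medial library 1 and in the mean of the other medial libraries stood in a ratio of 0.984. The 6 Cajal-Retzius cell markers summed to between 494 and 605 CPM in medial and between 153 and 193 CPM in lateral libraries. The 6 choroid plexus markers summed to between 9.16 and 18.2 CPM in medial and between 2.51 and 12.9 CPM in lateral libraries. Of these 6, 3 were higher in medial cortex without overlap. Among them, Otx2 had 12.8, 3.71 and 3.00 CPM in medial and 0.106 and 0.241 CPM in lateral libraries. Ttr overlapped, at 0.659, 2.27 and 8.87 CPM in medial and 0.943 and 10.4 CPM in lateral libraries. The 5 diencephalic markers, led by Lhx9 in medial libraries, summed to between 59.4 and 79.0 CPM in medial and between 9.29 and 17.5 CPM in lateral libraries. Lhx9 alone had 61.2, 70.7 and 50.9 CPM in medial and 10.8 and 3.68 CPM in lateral libraries. Tcf7l2, the next highest, had 4.82, 7.03 and 6.90 CPM in medial and 5.96 and 4.62 CPM in lateral libraries, and overlapped, as Irx3 did. Barhl2 was higher in medial cortex without overlap, at 0.729, 0.979 and 1.14 CPM in medial and 0.213 and 0.483 CPM in lateral libraries. So was Gbx2, but with at most 2 reads in any library. Of the 5 olfactory markers Gng13 was at 0 in every library, and Ric8b alone reached 53.0 CPM.

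The genes next to the 5 members on the chromosome, other than the members themselves, were also looked up. Dmrt2, which lies beyond Dmrt3 on chromosome 19 and is known from somite development, had 0.798, 0.874 and 0.946 CPM in medial libraries 1 to 3, against 1.29 and 0.631 CPM in lateral libraries 1 and 2. Its log2 fold change was −0.16 (SE 0.37) at an adjusted p = 0.805. Its groups overlapped. Kank1, on the other side of Dmrt1, stood at 0.45 (SE 0.27) with an adjusted p = 0.299. Beside Dmrta2, Faf1 stood at 0.02 (SE 0.10, adjusted p = 0.919), and the neuronal RNA-binding protein gene Elavl4 was lower in medial cortex at −0.50 (SE 0.08, adjusted p = 0.032). Glis1, next to Dmrtb1, had at most 8 reads in any library. The other DM-domain genes in the files, Dmrtc1a, Dmrtc1b, Dmrtc1c1, Dmrtc1c2 and Dmrtc2, had at most 16 reads in any library and were left out by the filter. On these few reads, Dmrtc1a and Dmrtc2 were lower in medial cortex without overlap, as 26.7% of the genes tested were. Dmrtc1a had 2, 0 and 5 reads in medial libraries 1 to 3, against 15 and 8 in lateral libraries 1 and 2. Scaled to library size, these were 0.0694, 0 and 0.139 CPM in medial and 0.228 and 0.149 CPM in lateral libraries. Dmrtc2 had 0, 1 and 4 reads in medial and 16 and 8 in lateral libraries. Its levels were 0, 0.0350 and 0.111 CPM in medial and 0.243 and 0.149 CPM in lateral libraries.

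The promoters of Dmrt3 and Dmrta2 are shown because these genes act together in mouse cortex. Each line gives the 250 bases before the start in the RefSeq promoter table, which matched 4 of 5 genes, plus strand of GRCm38.p6, at chr19:25610287-25610536 for Dmrt3 and chr4:109977775-109978024 for Dmrta2. That start is not always the outer end of the annotated gene. The Dmrt3 window lies inside its gene, which begins at 25610246, and the Dmrta2 window runs past its gene start at 109977989. Capitals mark the letters ACATTGT, a core of the site that DM-domain proteins bind.
Dmrt3: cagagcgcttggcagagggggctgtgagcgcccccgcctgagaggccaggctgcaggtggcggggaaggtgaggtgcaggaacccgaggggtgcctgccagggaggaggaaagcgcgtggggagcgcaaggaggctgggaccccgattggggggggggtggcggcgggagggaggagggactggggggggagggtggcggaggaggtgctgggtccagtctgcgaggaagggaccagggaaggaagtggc
Dmrta2: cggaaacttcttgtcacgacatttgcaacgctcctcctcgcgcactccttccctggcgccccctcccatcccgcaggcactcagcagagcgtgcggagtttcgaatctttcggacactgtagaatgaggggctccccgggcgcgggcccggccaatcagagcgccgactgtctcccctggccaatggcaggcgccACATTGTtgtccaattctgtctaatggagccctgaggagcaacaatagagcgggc
In a search of both strands, ACATTGT was found on the plus strand of the Dmrta2 window, with its first base at −55 from the start. It was in 2.56% of 32851 promoter windows of this length, on either strand. It was not in the Dmrt3, Dmrta1 or Dmrtb1 windows. The Dmrtb1 windows, on the minus strand, also lie inside the annotated gene, which ends at 107704011. For Dmrt3 and Dmrtb1 the bases upstream of the annotated gene were therefore not searched. The Tcf/Lef letters CTTTGAT and the homeodomain letters TAATTA were in none of the members' windows, against 3.21% and 4.84% of all windows. The E-box letters CAGCTG were in the Dmrta1 window and in 13.0% of all windows. They were also in the Dmrtb1 window at chr4:107683590-107683839, but not in the Dmrtb1 window at chr4:107684231-107684480. A match of letters shows no binding.

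By a rule that took the nearest centred log2 CPM profiles over the 5 libraries, by root mean square difference among 11816 named genes with a mean of at least 1 CPM, each gene had different nearest neighbours. Those of Dmrt3 were Ak3l2-ps, the cytoskeletal gene Pdlim1, Plekhh2, Pdgfrl and the glutaminase gene Gls2, at differences between 0.092 and 0.139. Emx2 ranked 22 at 0.212. Those of Dmrta2 were Tagln2, Galntl2, the replication origin gene Orc1, the laminin gene Lama5 and Dtx3l, between 0.097 and 0.112, and Lhx2 ranked 11 at 0.129. Those of Dmrta1 were the kinetochore gene Zwilch, Mettl1, the DNA repair gene Fancd2, Fank1 and Utp20, between 0.027 and 0.036. For Dmrta1, Emx2 ranked 4756 at 0.380 and Lhx2 ranked 2497 at 0.290. Those of Dmrtb1 were the ferrireductase gene Steap3, Plcd4, Insm2, Hopx and Prex2, between 0.127 and 0.158, and Wnt3a ranked 10635 at 1.63. Wnt3a ranked 11742 for Dmrt3, 11789 for Dmrta2 and 11801 for Dmrta1. For Dmrtb1, Emx2 ranked 362 and Lhx2 ranked 553. Hopx, known as a marker of outer radial glia in human cortex, had 60.6, 22.2 and 20.1 CPM in medial libraries 1 to 3, against 4.33 and 4.66 CPM in lateral libraries. Dmrt3 and Dmrta2 differed by 0.354 from each other, which put Dmrta2 at rank 110 for Dmrt3 and Dmrt3 at rank 876 for Dmrta2.

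Genes around the Dmrt factors in the patterning of the cortex were counted in lists chosen with earlier results known. Of all 16229 genes tested, 4.62% were called higher and 5.10% lower in medial cortex, with a median log2 fold change of 0.01. Calls are adjusted p-values under 0.05 by edgeR's quasi-likelihood test over all genes. edgeR made 0 calls once medial library 2 was dropped (4036 genes at an unadjusted p under 0.05), and 0 once lateral library 2 was dropped (2456 genes). Without lateral library 1 there were 18 calls and without medial library 3 there were 490, so the counts per list rest on these libraries. DESeq2 called 3527 genes with all libraries.

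Dorsomedial signals, the Wnt, BMP and R-spondin ligands and their readouts that lie upstream of Dmrt genes in the mouse, were mostly higher in medial cortex. Of 19 tested, 13 were higher and 1, Wnt7b, was lower, with a median log2 fold change of 4.07. Bmp7, a hem ligand, had 18.6, 17.9 and 15.2 CPM in medial and 1.75 and 1.19 CPM in lateral libraries (log2 difference 3.54, SE 0.22, adjusted p = 0.0109). Wnt5a (4.08, SE 0.37), Rspo1 (7.05, SE 0.63) and the Wnt feedback gene Axin2 (1.75, SE 0.15) were also higher, each at an adjusted p = 0.023. Without medial library 1, 15 were higher.

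Transcription factors that pattern the cortex with the Dmrt genes split. Of 15 tested, 3 were higher in medial cortex and 0 lower, with a median of 0.38, while DESeq2 called 6 higher and 2 lower. Emx2, the medial cortex factor that works with Dmrta2, had 102, 112 and 111 CPM in medial and 52.1 and 34.9 CPM in lateral libraries (log2 difference 1.32, SE 0.18, adjusted p = 0.030). Lhx2, which limits the hem, had one of 1.07 (SE 0.17, adjusted p = 0.032) and Sp8 one of 1.66 (SE 0.26, adjusted p = 0.032). Pax6, a radial glia factor that is high laterally in early cortex, had 224, 216 and 205 CPM in medial and 194 and 153 CPM in lateral libraries and did not pass (0.31, SE 0.12, adjusted p = 0.132). Emx2 and Lhx2 were both lower in lateral library 2 than in lateral library 1, as Dmrt3 and Dmrta2 were. This was not particular to these genes. Dmrta1, Pax6, Hes1 and the progenitor marker sum were lower there too, and the neuron marker sum was higher. Without medial library 1, 6 of the list were higher and 3 lower, and without medial library 3, 0 were called.

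Ventral forebrain genes, the class that Dmrt3 and Dmrta2 hold down in mouse cortex, were in part lower in medial cortex. Of 12 tested, 6 were lower and 0 higher, with a median of −1.78. Dlx1 had 1.01, 0.909 and 3.42 CPM in medial and 12.5 and 20.6 CPM in lateral libraries (log2 difference −3.16, SE 0.53, adjusted p = 0.032). Dlx2 (−3.36, SE 0.53, adjusted p = 0.032), Gad1 (−3.44, SE 0.48, adjusted p = 0.030) and Gad2 (−3.41, SE 0.53, adjusted p = 0.032) were lower too. These are also genes of migrating GABAergic neurons, and which cells held them was not tested. Gsx2 itself, the ventral factor most directly tied to the Dmrt genes, had 1, 0 and 4 reads in medial and 2 and 3 reads in lateral libraries, so no difference was detectable at this depth.

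Of 14 proneural and Notch genes, 2 were higher in medial cortex and 0 lower, with a median of 0.35, while DESeq2 called 6 higher and 1 lower. Hes1, a Notch effector that keeps progenitors dividing and that Dmrta2 has been reported to activate, had 87.3, 84.2 and 73.9 CPM in medial and 47.1 and 31.7 CPM in lateral libraries (log2 difference 1.05, SE 0.18, adjusted p = 0.034). Its receptor gene Notch1 had one of 0.69 (SE 0.15, adjusted p = 0.048). The progenitor marker sum was 1.51 times as high in medial as in lateral cortex and the neuron marker sum was lower, and their part in these calls was not tested. Neurog2, tied to Dmrta1, had 162, 208 and 251 CPM in medial and 224 and 178 CPM in lateral libraries, which overlapped (0.04, SE 0.20, adjusted p = 0.902). Without medial library 3 none of the list was called higher.

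**Figure D4:**
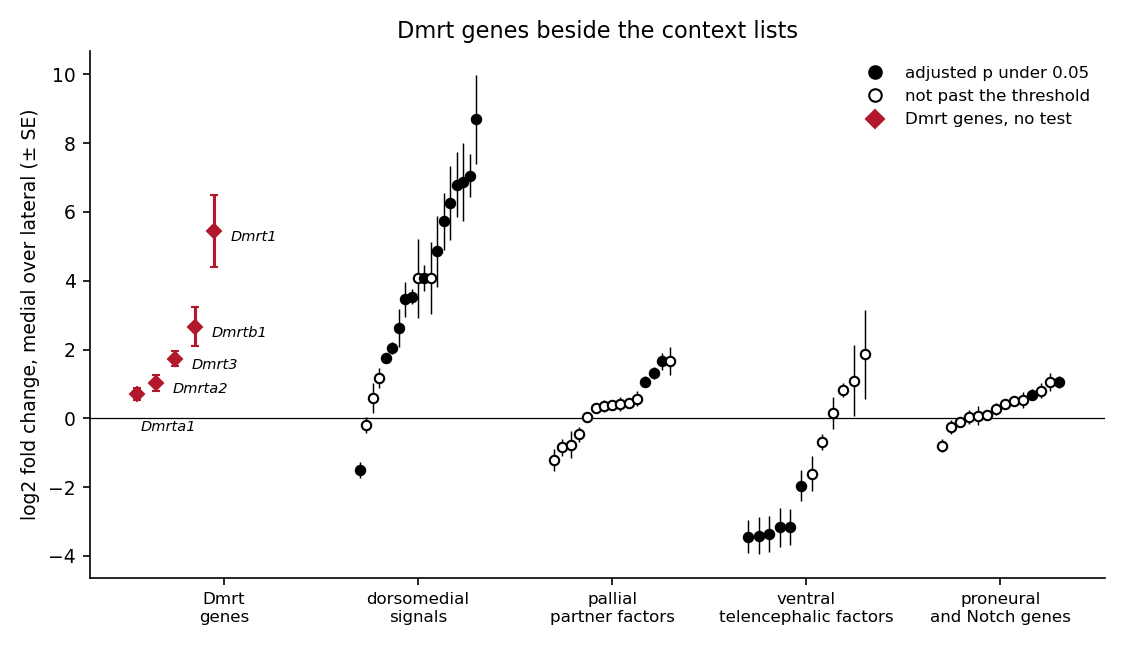
Log2 fold change of medial over lateral cortex with its SE for the Dmrt genes (red, no test) and for the tested genes of 4 context lists (filled where the adjusted p is under 0.05). Dmrt1 lies at 5.45, Dmrtb1 at 2.67, Dmrt3 at 1.73, Dmrta2 at 1.03 and Dmrta1 at 0.71, beside 1.32 for Emx2 and 1.07 for Lhx2, and the dorsomedial signals run from −1.51 to 8.70.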

How the data were processed

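Gene expression was measured by RNA sequencing of polyadenylated RNA, without strand, in 3 medial and 2 lateral cortex libraries, grouped by the labels. The authors deposited raw read counts per gene symbol, 1 table per library. The submitters' processing notes list HTSeq, STAR and BWA as tools and mm9 as the build; versions and roles are not given in the sources used here. Reads assigned to no gene, between 23.1% and 28.7% of each table, stayed out of library sizes.

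Counts were fitted with edgeR 4.0.16 in R 4.3.3 (TMM, filterByExpr with a minimum count of 10 and total of 15, glmQLFit in its edgeR 4 form, 3 residual degrees of freedom), which tested 16229 genes with Benjamini-Hochberg adjustment and a threshold of 0.05. The SE is the log2 fold change over the root of F. Profiles used log2 CPM with a prior count of 2. The test was checked on simulated data.

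The Dmrt genes and the lists were chosen with earlier results of these data known. The text names all 5 Dmrt genes, up to 4 called genes per list with the lowest adjusted p, Emx2, Pax6, Lhx2, Gsx2, Neurog2 and Hes1, the 5 nearest profiles, and marker genes. Neighbouring genes were added after values were seen. Alternatives were DESeq2 1.42.0, other scalings, no filter, each library left out, and replicate blocks. The p-values rest on the spread among these 5 libraries, which may be technical. The floor of 3 reads equals between 0.0456 and 0.105 CPM and covers counting error only.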

Additional observations from a re-analysis of the deposited data

How the results depend on the processing

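The log2 fold changes of the 5 Dmrt genes were positive in all 11 alternative fits. With 1 library left out they ranged from 1.44 to 2.10 for Dmrt3, from 0.59 to 0.84 for Dmrta1, from 0.69 to 1.46 for Dmrta2, from 4.62 to 5.83 for Dmrt1 and from 2.07 to 2.95 for Dmrtb1. The log2 difference of the mean read ratio between regions ranged from 0.64 to 0.78 for Dmrt3 over Dmrta2, from −0.61 to −0.10 for Dmrta1 over Dmrta2, from 0.88 to 1.30 for Dmrt3 over Dmrta1, from 2.85 to 4.36 for Dmrt1 over Dmrt3, from 0.98 to 2.03 for Dmrtb1 over Dmrta2 and from 2.66 to 2.90 for Dmrt1 over Dmrtb1.

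Called genes, 1577 in all with 750 higher and 827 lower in medial cortex, ranged from 0 to 2163, from 0 to 1026 higher and from 0 to 1137 lower with 1 library left out. DESeq2 called 3527, 1737 higher and 1790 lower. Without the low-count filter 1201 were called, 495 of them higher. Among the lists, calls with 1 library left out ranged from 0 to 15 higher and from 0 to 1 lower for dorsomedial signals, from 0 to 6 higher and from 0 to 3 lower for pallial factors, from 0 to 1 higher and from 0 to 6 lower for ventral factors, and from 0 to 2 higher and from 0 to 1 lower for proneural and Notch genes. DESeq2 called 6 pallial factors higher and 2 lower, 1 ventral factor higher, and 6 proneural and Notch genes higher and 1 lower. Library size alone gave 1 ventral factor higher and 1 proneural or Notch gene lower, and no filter gave 1 proneural or Notch gene higher. Library size alone also moved the median of all genes to 0.08. The cause was not tested.

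The label numbers gave correlations of deviations of 0.03 and −0.38, and the numbers in the deposited names gave 0.38 and 0.38. With 2 lateral libraries, the deviations of lateral library 1 are those of lateral library 2 with the sign changed. Medial library 2 therefore gives the same value with opposite signs under the 2 numberings. The values are not independent and cannot decide which libraries are paired. No label says what the numbers in the deposited names mark. A replicate block by label number left 1 residual degree of freedom and 1076 calls, 454 higher, with 1 pallial factor higher and 1 lower and 1 proneural or Notch gene lower. A replicate block by the number in the deposited names gave 5364 calls, 2633 higher and 2731 lower, with 10 pallial factors higher and 4 lower, 1 ventral factor higher, and 8 proneural and Notch genes higher and 1 lower. Low read counts limited what could be said of Dmrt1 in lateral cortex, Gsx2 and the Dmrtc genes.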

Other observations

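Dmrt1, with a mean of 0.990 CPM, missed the 1 CPM minimum for the comparison of profiles. Its nearest profiles, looked up after that was seen, were Bmp6 at a root mean square log2 difference of 0.118, the cilium-associated cyclin gene Ccno at 0.153, the ceruloplasmin gene Cp at 0.208, the Wnt inhibitor gene Wif1 at 0.275 and the endocytic receptor gene Lrp2 at 0.295. Bmp6, a ligand of the dorsal midline, had 4.996, 1.54 and 1.14 CPM in medial libraries 1 to 3, against 0.0912 and 0.0743 CPM in lateral libraries. Wnt3a ranked 49 for Dmrt1, at 0.812. Dmrt3, the neighbour of Dmrt1 on chromosome 19, differed from it by 1.38 on the same measure.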
